A study of Mus musculus with 18 samples.

Results

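The genes of the proteasome, the large protease that destroys ubiquitin-tagged proteins, were taken by name from the read-count tables of mouse hippocampus and cerebral cortex. Every symbol that begins with Psm, followed by a letter from a to g and a digit, was a member. The rule used no measured value, but it was chosen with earlier results of these data known. The rule found 50 of the 18389 genes listed for hippocampus and the same 50 among the 18235 listed for cortex. They were 8 Psma, 11 Psmb, 7 Psmc, 14 Psmd, 5 Psme, 1 Psmf and 4 Psmg symbols. 47 of them passed the filter on low counts in both tissues. The other three did not: Psma8, the alpha subunit known from testis, Psmb11, the beta subunit known from thymus, and Psme2b, a copy closely similar to Psme2, had at most 9 counts in any library. Psmc3ip was caught by the rule although its protein, which acts in meiotic recombination, is no subunit, and it is given apart.

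Poly(A) RNA was sequenced from 6 groups of 3 libraries, 18 in all: hippocampus and cerebral cortex, each as fresh control tissue, as tissue snap-frozen by immersion in liquid nitrogen, and as vitrified tissue. Vitrification turns tissue to a glass without ice crystals. The vitrified pieces were loaded in rising steps with ethylene glycol, dimethyl sulfoxide and sucrose in phosphate-buffered saline, cooled in liquid nitrogen, stored frozen, rewarmed in a water bath and unloaded in falling steps before homogenization in TRIzol. The labels describe loading, rewarming and unloading for the vitrified groups alone, so the cooling itself cannot be told apart from those steps. They name no genotype, strain, sex, age or animal, and the p-values below rest on the scatter of 3 libraries per group, part or all of which may be technical.

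The proteasome holds a barrel-shaped core particle, the 20S proteasome, in which outer alpha rings gate the entry and inner beta rings cut peptides. Psmb5, Psmb6 and Psmb7 encode the cutting subunits, with chymotrypsin-like, caspase-like and trypsin-like activity, and under interferon they are replaced by Psmb8, Psmb9 and Psmb10 in the immunoproteasome. The 19S regulatory particle caps the core: its base of Psmc ATPases and large Psmd scaffolds unfolds substrates, and its lid removes ubiquitin. Psme proteins are other caps, Psmf1 binds the core and inhibits it in vitro, and Psmg proteins, with Psmd5, Psmd9 and Psmd10 for the base, are chaperones that help to assemble the particle and then leave it. In brain, proteasomes are known for protein quality control in neurons and for the turnover of synaptic proteins.

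The promoters of 4 members are printed because the results below turn on them: Psmb5 was the constitutive core subunit with the widest gap between the fresh tissues, Psmd6 and Psmc6 had the largest rises of a lid and a base gene in snap-frozen cortex, and Psme4 rose in both vitrified tissues. Each window of 300 bases runs 5′ to 3′ on the gene's strand, from 250 before to 50 after the start in RefSeq (GRCm38.p6). Capitals mark matches, on either strand, to TGACNNNGC, a partial site of the antioxidant response element to which Nfe2l1 and Nfe2l2 are known to bind, and to CCGGAAG, a core of ETS factor sites.
Psmb5, chr14:54617946-54618245, minus strand: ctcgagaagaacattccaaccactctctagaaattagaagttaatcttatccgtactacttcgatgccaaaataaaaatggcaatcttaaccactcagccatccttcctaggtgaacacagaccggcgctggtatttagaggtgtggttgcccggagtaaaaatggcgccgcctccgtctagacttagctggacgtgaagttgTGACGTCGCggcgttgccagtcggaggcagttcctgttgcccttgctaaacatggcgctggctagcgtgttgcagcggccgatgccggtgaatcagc
Psmd6, chr14:14120896-14121195, minus strand: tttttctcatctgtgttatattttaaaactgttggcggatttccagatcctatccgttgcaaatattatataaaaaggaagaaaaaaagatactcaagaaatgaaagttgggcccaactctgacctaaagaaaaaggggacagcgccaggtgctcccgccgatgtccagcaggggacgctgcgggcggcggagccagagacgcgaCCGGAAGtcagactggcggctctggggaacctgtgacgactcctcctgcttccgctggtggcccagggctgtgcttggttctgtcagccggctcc
Psmc6, chr14:45329574-45329873, plus strand: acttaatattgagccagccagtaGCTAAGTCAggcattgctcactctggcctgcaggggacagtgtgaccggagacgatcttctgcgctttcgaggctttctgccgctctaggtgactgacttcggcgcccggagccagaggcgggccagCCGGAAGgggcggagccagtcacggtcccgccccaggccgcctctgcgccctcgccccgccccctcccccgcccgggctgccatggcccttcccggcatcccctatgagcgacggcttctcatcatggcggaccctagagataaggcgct
Psme4, chr11:30771525-30771824, plus strand: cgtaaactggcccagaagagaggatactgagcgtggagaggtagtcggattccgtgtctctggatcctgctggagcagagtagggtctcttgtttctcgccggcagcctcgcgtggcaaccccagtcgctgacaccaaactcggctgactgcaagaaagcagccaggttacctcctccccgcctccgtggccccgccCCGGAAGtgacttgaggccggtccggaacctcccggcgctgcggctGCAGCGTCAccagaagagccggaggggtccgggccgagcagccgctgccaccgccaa
Psmb5 held TGACNNNGC from base 204 of its window, and Psmd6 held CCGGAAG from base 206. Psmc6 held both, TGACNNNGC from base 24 on the opposite strand and CCGGAAG from base 151, and so did Psme4, from bases 244 (opposite strand) and 198, and the matches in these windows did not overlap. A window was listed for 42 of the 50 members. CCGGAAG was found in 9 of 14 base and lid genes (64.3%), in 1 of 11 constitutive core genes (9.09%) and in 2683 of 27025 genes of the whole RefSeq table (9.93%). TGACNNNGC was found in 6 of 42 members (14.3%) and in 13.99% of all genes. These matches describe letters and no binding was measured.

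The libraries held between 15725356 and 17480302 counts. The third snap-frozen cortex library stood apart: it was the highest of its group for 35 of 47 members, with a median log2 deviation from the group mean of 0.06. The counts of members called in snap-frozen cortex, and the values of some but not all named genes, are therefore also given without it. Members made up 0.349% of the counts in fresh cortex (0.348% to 0.350% over the libraries), 0.394% in snap-frozen cortex (0.384% to 0.414%) and 0.365% in vitrified cortex. In hippocampus they made up 0.344% of the counts in fresh, 0.363% in snap-frozen and 0.373% in vitrified tissue. The tissue labels fitted their markers in fresh tissue: the summed level of 8 cortical markers was 781 to 808 CPM (each library's counts scaled to a common depth, after TMM factors) in fresh cortex and 289 to 297 CPM in fresh hippocampus, while 8 hippocampal field markers summed to 530 to 536 CPM in fresh hippocampus and 187 to 191 CPM in fresh cortex. In snap-frozen hippocampus the sums lay closer, at 346 to 364 CPM for the field markers and 329 to 348 CPM for the cortical ones. In vitrified hippocampus they were 593 to 605 CPM and 319 to 328 CPM.

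Snap freezing was followed by a rise of most proteasome transcripts in cortex, and, under TMM scaling, by a fall of 13 of 47 in hippocampus. A gene was called when its edgeR adjusted p was under 0.05 over all genes tested in the fit. In snap-frozen against fresh cortex 34 of 47 members rose and 1 fell, while 16.4% of the 14470 genes tested rose and 17.6% fell (34% in either direction). Without the third snap-frozen cortex library 28 members rose and 1 fell, beside 14.3% of all genes risen. The median log2 fold change was 0.18 over the members and 0.00 over all genes. In snap-frozen against fresh hippocampus 6 members rose and 13 fell, where 31.5% of the 14528 genes tested rose and 30.7% fell (62.2% in either direction), so the members' shares were below the background in both directions. Here and below, fewer cells of a type and less RNA per cell cannot be told apart, since the tissue was sequenced in bulk.

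Under TMM scaling fewer members were called after vitrification than after snap freezing, 17 against 19 in hippocampus and 11 against 35 in cortex. In vitrified against fresh hippocampus 13 rose and 4 fell, beside 23.8% and 25.3% of all genes (49.1% in either direction), with a median of 0.07 over the members and 0.01 over all genes. In vitrified against fresh cortex 10 rose and 1 fell, beside 23.2% and 17.3% of all genes (40.5% in either direction), with medians of 0.08 and 0.03. Set against snap-frozen tissue, vitrified hippocampus had 22 members higher and 2 lower (33.8% and 34% of all genes, 67.8% in either direction). Vitrified cortex had 2 higher and 26 lower (25.5% and 24.2% of all genes, 49.6% in either direction), and 2 higher and 21 lower without the third snap-frozen cortex library. Both comparisons share their snap-frozen libraries with those against fresh tissue. Between the fresh tissues the members differed little: 4 were higher and 6 lower in cortex, against 27.8% and 28.5% of the 14827 genes tested in both tissues (56.4% in either direction).

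**Figure D1:**
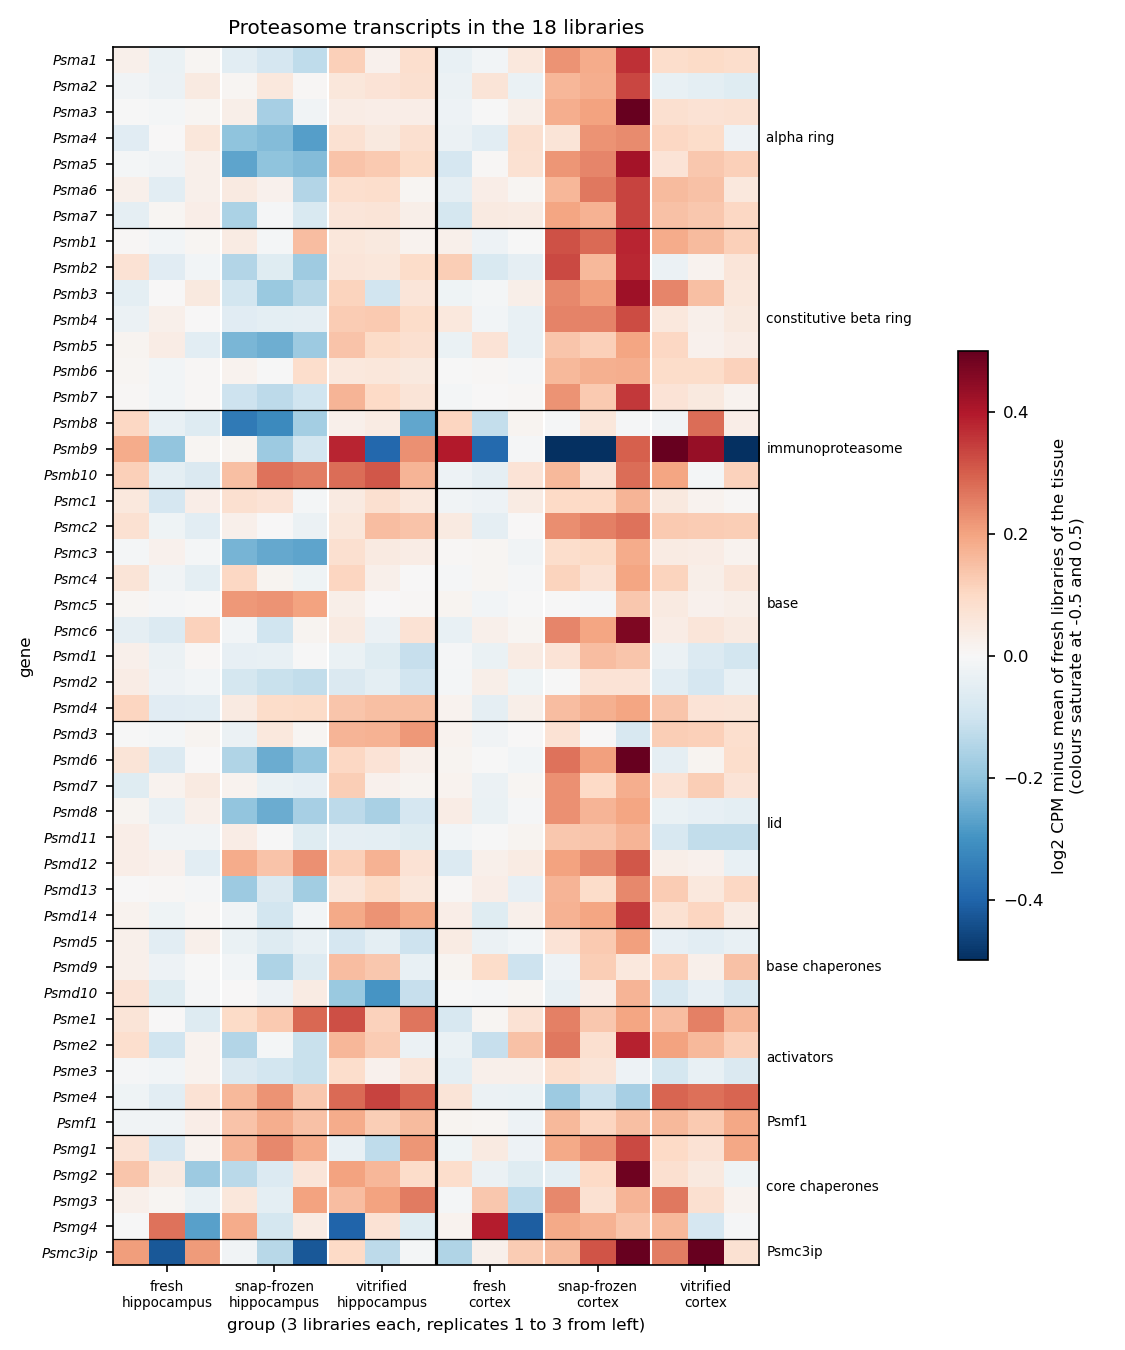
Level of the 47 tested proteasome transcripts in the 18 libraries, as log2 CPM minus the mean of the fresh libraries of the same tissue (colour), with genes in rows by class and the 3 libraries of a group side by side. The snap-frozen cortex columns are raised for the 14 constitutive core subunits, 7 of which fell in snap-frozen hippocampus under TMM scaling.

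The direction in hippocampus depended on the scaling. With library totals in place of TMM factors the median of all genes in snap-frozen against fresh hippocampus moved from 0.01 to 0.13, and 21 members rose and 5 fell, with Psma1, Psmb7, Psmd2 and Psme3 turning from a called fall to a positive value. At that setting 46.7% of all genes rose (66.4% were called in either direction). The members' median under library totals, 0.08, was still below that of all genes. In snap-frozen cortex library totals left 34 members higher and 1 lower, beside 16.5% of all genes higher (33.9% in either direction). In vitrified against fresh hippocampus library totals gave 33 members higher and 0 lower, where 33.1% of all genes were higher and 13 of the 33 were also called under TMM factors. Between the fresh tissues they gave 11 members higher and 4 lower, in place of 4 and 6. There the median moved from -0.05 to -0.01 over the constitutive core and from 0.03 to 0.06 over the base and lid genes. The share of all genes at that setting is not given here, so this shift is not read as particular to the members. In vitrified against snap-frozen hippocampus library totals gave 14 higher and 8 lower, beside 27.4% of all genes higher (68% in either direction).

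Per kilobase of transcript, the most abundant members in fresh hippocampus were the core subunits Psmb5 (129 CPM per kb) and Psmb4 (113 CPM per kb) and the base ATPases Psmc5 (113 CPM per kb) and Psmc3 (112 CPM per kb). Fresh cortex had the same genes on top, in the order Psmc5 (127 CPM per kb), Psmb4 (107), Psmc3 (105) and Psmb5 (101). At the low end stood the immunoproteasome subunits Psmb9 (0.681 CPM per kb in hippocampus and 0.816 in cortex) and Psmb8 (1.86 and 1.92), then the chaperone Psmg4 (6.49 and 5.70), Psmf1 (8.29 and 9.55) and the large cap Psme4 (8.66 and 9.11). The remaining inducible subunit, Psmb10, reached 14.01 CPM per kb in hippocampus and 19.5 in cortex.

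Of the 10 members that differed between the fresh tissues, the widest gap was that of Psmb10, whose product takes the place of Psmb7 in the immunoproteasome. It stood at 25.4, 25.2 and 27.1 CPM in fresh cortex and 19.9, 17.7 and 17.4 CPM in fresh hippocampus, scaled over both tissues, a log2 difference of 0.50 ± 0.070, edgeR adjusted p = 5.95e-08. Every cortex library lay above every hippocampus library. Psmf1 (0.22 ± 0.048, edgeR adjusted p = 0.000119), Psmc5 (0.18 ± 0.032, edgeR adjusted p = 3.32e-06) and Psmd3 (0.11 ± 0.034, edgeR adjusted p = 0.00739) were also higher in cortex. The chymotrypsin-like subunit Psmb5 went the other way, with 89.6, 96.4 and 89.4 CPM in cortex and 117, 119 and 111 CPM in hippocampus (-0.33 ± 0.037, edgeR adjusted p = 2.16e-10). Its groups did not overlap. The lid subunit Psmd6 (-0.26 ± 0.052, edgeR adjusted p = 3.43e-05), the base chaperone Psmd5 (-0.20 ± 0.045, edgeR adjusted p = 0.000149) and the beta-ring subunit Psmb3 (-0.16 ± 0.052, edgeR adjusted p = 0.00903) were lower in cortex as well. Psmd1 (-0.08 ± 0.032, edgeR adjusted p = 0.0395) and Psmc3 (-0.07 ± 0.029, edgeR adjusted p = 0.0282) were lower by small margins. The call of Psmd1 was lost in 9 of 16 alternatives, and those of Psmc3 and Psmd3 in 4 of 16 each. Tissue and deposited table coincide, so a difference between the tables' processing and a difference between tissues cannot be told apart. Cell type markers also differed between the fresh tissues, and their part in these differences was not tested: all 10 endothelial markers were higher in cortex (median log2 difference 0.86), as were 6 of 8 choroid plexus markers (median 2.42), 7 of 8 meningeal fibroblast markers (median 1.57) and 5 of 5 tested blood markers (median 0.97).

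**Figure D2:**
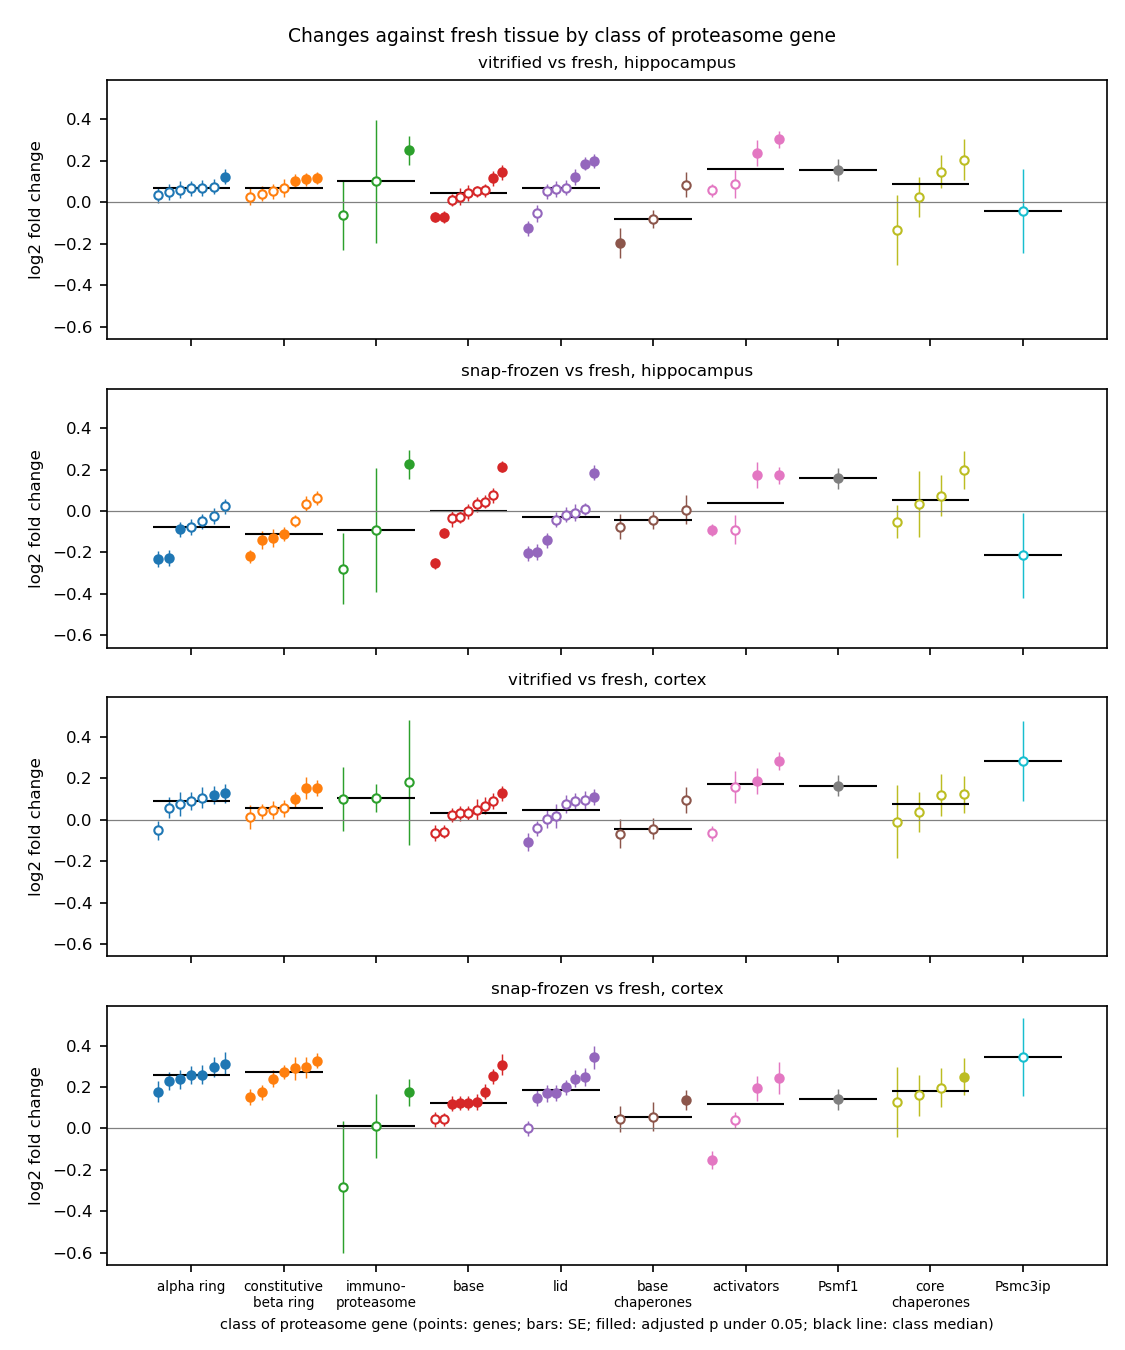
Log2 fold change against fresh tissue (vertical axis) of each tested proteasome gene by class, in 4 comparisons, with bars for the SE, filled points for calls at an adjusted p under 0.05 and black lines for class medians. Under TMM scaling all 14 constitutive core subunits lie above 0 with filled points in snap-frozen cortex, while 7 of them are filled and below 0 in snap-frozen hippocampus.

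Constitutive core subunits rose together in snap-frozen cortex. All 7 tested alpha-ring genes rose (median log2 fold change 0.26, from 0.18 to 0.31) and all 7 constitutive beta-ring genes rose (median 0.27, from 0.15 to 0.33). Without the third snap-frozen library all 14 were still called, with a median of 0.20. In snap-frozen hippocampus 7 of the 14 fell and none rose under TMM scaling, with a median of -0.08. Under library totals 5 rose and 3 fell there, with a median of 0.04. In vitrified hippocampus the 14 values were all positive, between 0.03 and 0.12, of which 4 passed the test (Psma5, Psmb4, Psmb5 and Psmb7). In vitrified cortex 5 rose (Psma6, Psma7, Psmb1, Psmb3 and Psmb6) and none fell. Psmb1 alone of these was called in all 16 alternatives: Psma6 was lost in 7, Psma7 in 6, Psmb3 in 5 and Psmb6 in 12, and DESeq2 called 1 of the 14 core genes.

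Psma5, a subunit of the alpha ring, had the widest swing of the core. It stood at 74.8, 74.5 and 76.7 CPM in fresh, 62.7, 65.5 and 64.9 CPM in snap-frozen and 83.2, 82.5 and 80.4 CPM in vitrified hippocampus. In cortex the libraries held 69.9, 74.3 and 78.0 CPM fresh, 86.2, 87.7 and 98.8 CPM snap-frozen and 77.6, 81.3 and 80.4 CPM vitrified. The hippocampal groups were separate, in the order snap-frozen, fresh, vitrified, and in cortex all snap-frozen libraries lay above all others. Psma5 fell in snap-frozen hippocampus (-0.23 ± 0.037, edgeR adjusted p = 7.08e-07), rose in snap-frozen cortex (0.30 ± 0.048, edgeR adjusted p = 2.11e-05) and rose in vitrified hippocampus (0.12 ± 0.036, edgeR adjusted p = 0.00376). The cortical rise was 0.23 without the third snap-frozen library. Vitrified hippocampus exceeded snap-frozen hippocampus by 0.35 ± 0.036, edgeR adjusted p = 1.01e-11.

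Psma4, another alpha-ring subunit, stood at 67.1, 69.8 and 72.5 CPM in fresh, 60.7, 59.996 and 57.7 CPM in snap-frozen and 73.6, 72.1 and 73.7 CPM in vitrified hippocampus. In cortex it stood at 63.1, 62.0 and 68.0 CPM (fresh), 67.2, 75.2 and 75.9 CPM (snap-frozen) and 69.2, 68.6 and 63.3 CPM (vitrified). Its snap-frozen libraries were the lowest 3 of hippocampus, but in cortex the lowest of them lay below the highest fresh one. It fell in snap-frozen hippocampus (-0.23 ± 0.039, edgeR adjusted p = 1.36e-06) and rose in snap-frozen cortex (0.18 ± 0.049, edgeR adjusted p = 0.00622), the second call being lost in 2 of 16 alternatives. Psma3, of the same ring, stood at 107, 107 and 108 CPM in fresh, 109.7, 95.7 and 106 CPM in snap-frozen and 110.4, 110.1 and 109.9 CPM in vitrified hippocampus, with no group called against fresh. Its cortical levels were 101, 102 and 105 CPM (fresh), 116, 118 and 148 CPM (snap-frozen) and 109, 108 and 108 CPM (vitrified). All 3 snap-frozen cortex libraries were above the fresh ones, the third far above the others. The rise of 0.31 ± 0.055, edgeR adjusted p = 6.65e-05 became 0.19 without that library.

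Psma2, also of the alpha ring, stood at 77.4, 82.4 and 77.1 CPM in fresh, 88.5, 89.5 and 99.5 CPM in snap-frozen and 76.8, 76.3 and 75.7 CPM in vitrified cortex, where the snap-frozen libraries were the highest 3. It rose after snap freezing (0.23 ± 0.044, edgeR adjusted p = 0.00018) and was lower in vitrified than in snap-frozen cortex (-0.28 ± 0.044, edgeR adjusted p = 6.12e-06). In hippocampus its levels, 75.0, 74.5 and 78.4 CPM fresh, 76.5, 78.8 and 76.3 CPM snap-frozen and 78.9, 79.6 and 80.3 CPM vitrified, gave no call. Psma7 rose in both treated cortex groups, with 71.3, 78.3 and 77.9 CPM in fresh, 86.8, 85.4 and 95.9 CPM in snap-frozen and 83.9, 83.2 and 81.3 CPM in vitrified tissue. Its fresh libraries were the lowest 3 (snap-frozen 0.24 ± 0.045, edgeR adjusted p = 0.000176; vitrified 0.13 ± 0.046, edgeR adjusted p = 0.0283), but the second of these calls was lost in 6 of 16 alternatives. In hippocampus Psma7 stood at 74.2, 76.9 and 78.3 CPM (fresh), 68.4, 76.2 and 72.5 CPM (snap-frozen) and 79.7, 80.0 and 78.0 CPM (vitrified), with no call against fresh.

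Among the cutting subunits, Psmb5 carries the chymotrypsin-like site. It stood at 117, 119 and 111 CPM in fresh, 98.5, 97.7 and 102 CPM in snap-frozen and 127, 123 and 122 CPM in vitrified hippocampus. The cortex libraries held 88.5, 95.1 and 88.4 CPM (fresh), 99.8, 98.4 and 104 CPM (snap-frozen) and 97.3, 92.0 and 93.1 CPM (vitrified). The hippocampal groups did not overlap and neither did fresh and snap-frozen cortex. Psmb5 fell in snap-frozen hippocampus (-0.22 ± 0.033, edgeR adjusted p = 1.1e-07), rose in vitrified hippocampus (0.11 ± 0.032, edgeR adjusted p = 0.00536) and rose in snap-frozen cortex (0.15 ± 0.040, edgeR adjusted p = 0.00409), the last call being lost in 2 of 16 alternatives. Psmb7, the trypsin-like subunit, followed the same order, with 115, 114 and 116 CPM (fresh), 107, 105 and 107 CPM (snap-frozen) and 129, 123 and 120.3 CPM (vitrified) in hippocampus. Its cortex libraries stood at 109.8, 111 and 111 CPM (fresh), 129, 121 and 141 CPM (snap-frozen) and 116, 114 and 112 CPM (vitrified). Its changes against fresh were -0.11 ± 0.032, edgeR adjusted p = 0.00239 in snap-frozen hippocampus, 0.11 ± 0.032, edgeR adjusted p = 0.00269 in vitrified hippocampus and 0.24 ± 0.042, edgeR adjusted p = 5.48e-05 in snap-frozen cortex, and the first of these turned to 0.01 under library totals. Psmb6, the caspase-like subunit, differed from both: its hippocampal levels of 80.2, 78.8 and 79.9 CPM (fresh), 80.6, 79.6 and 84.7 CPM (snap-frozen) and 82.6, 82.9 and 82.3 CPM (vitrified) gave no call. Cortical values were 77.0, 77.5 and 76.9 CPM fresh, 86.4, 87.3 and 87.5 CPM snap-frozen and 82.1, 82.1 and 83.5 CPM vitrified, 3 separate groups. Psmb6 rose after snap freezing (0.17 ± 0.037, edgeR adjusted p = 0.000612) and after vitrification (0.10 ± 0.038, edgeR adjusted p = 0.0403), the first call being lost in 2 and the second in 12 of 16 alternatives.

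The other beta-ring genes rose in snap-frozen cortex too. Psmb1 stood at 92.7, 89.5 and 90.9 CPM in fresh, 113, 111 and 119 CPM in snap-frozen and 104, 102 and 98.9 CPM in vitrified cortex, again 3 separate groups, and at 94.7, 93.6 and 95.0 CPM (fresh), 97.2, 93.7 and 105 CPM (snap-frozen) and 98.1, 97.8 and 95.7 CPM (vitrified) in hippocampus, where the test found no change. Its rise of 0.33 ± 0.038, edgeR adjusted p = 1.21e-07 in snap-frozen cortex was the largest of the core and stayed at 0.30 without the third library, and it rose by 0.16 ± 0.039, edgeR adjusted p = 0.00186 in vitrified cortex. Psmb2 stood at 55.6, 48.4 and 49.5 CPM (fresh), 64.3, 57.2 and 66.3 CPM (snap-frozen) and 50.0, 51.7 and 53.3 CPM (vitrified) in cortex. In hippocampus it stood at 58.6, 53.5 and 55.2 CPM (fresh), 50.4, 53.5 and 49.3 CPM (snap-frozen) and 58.1, 57.9 and 59.5 CPM (vitrified). It rose in snap-frozen cortex (0.29 ± 0.055, edgeR adjusted p = 0.000138) and fell in snap-frozen hippocampus (-0.13 ± 0.043, edgeR adjusted p = 0.00886), where the highest snap-frozen library equalled the lowest fresh one to 3 digits and the call was lost in 3 of 16 alternatives. Psmb3 stood at 59.0, 59.5 and 61.1 CPM (fresh), 70.7, 69.2 and 80.3 CPM (snap-frozen) and 71.0, 66.3 and 62.2 CPM (vitrified) in cortex. In hippocampus it stood at 65.3, 67.5 and 69.9 CPM (fresh), 63.3, 59.3 and 61.3 CPM (snap-frozen) and 72.9, 63.3 and 70.4 CPM (vitrified). All its treated cortex libraries were above the fresh ones (0.29 ± 0.052, edgeR adjusted p = 6.09e-05 after snap freezing; 0.15 ± 0.053, edgeR adjusted p = 0.0222 after vitrification, lost in 5 of 16 alternatives), while in hippocampus it fell after snap freezing (-0.14 ± 0.043, edgeR adjusted p = 0.00438).

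The regulatory particle moved with the core in snap-frozen cortex, with 7 of 9 base genes (median 0.12) and 7 of 8 lid genes (median 0.19) risen and none fallen. Without the third snap-frozen library 13 of these 17 genes were called and the median was 0.14. In snap-frozen hippocampus 2 of the 17 rose and 5 fell under TMM scaling, while 11 rose and 2 fell under library totals. Vitrified hippocampus had 5 risen and 3 fallen, and vitrified cortex 2 risen (Psmc2 and Psmd3) and 1 fallen (Psmd11).

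**Figure D3:**
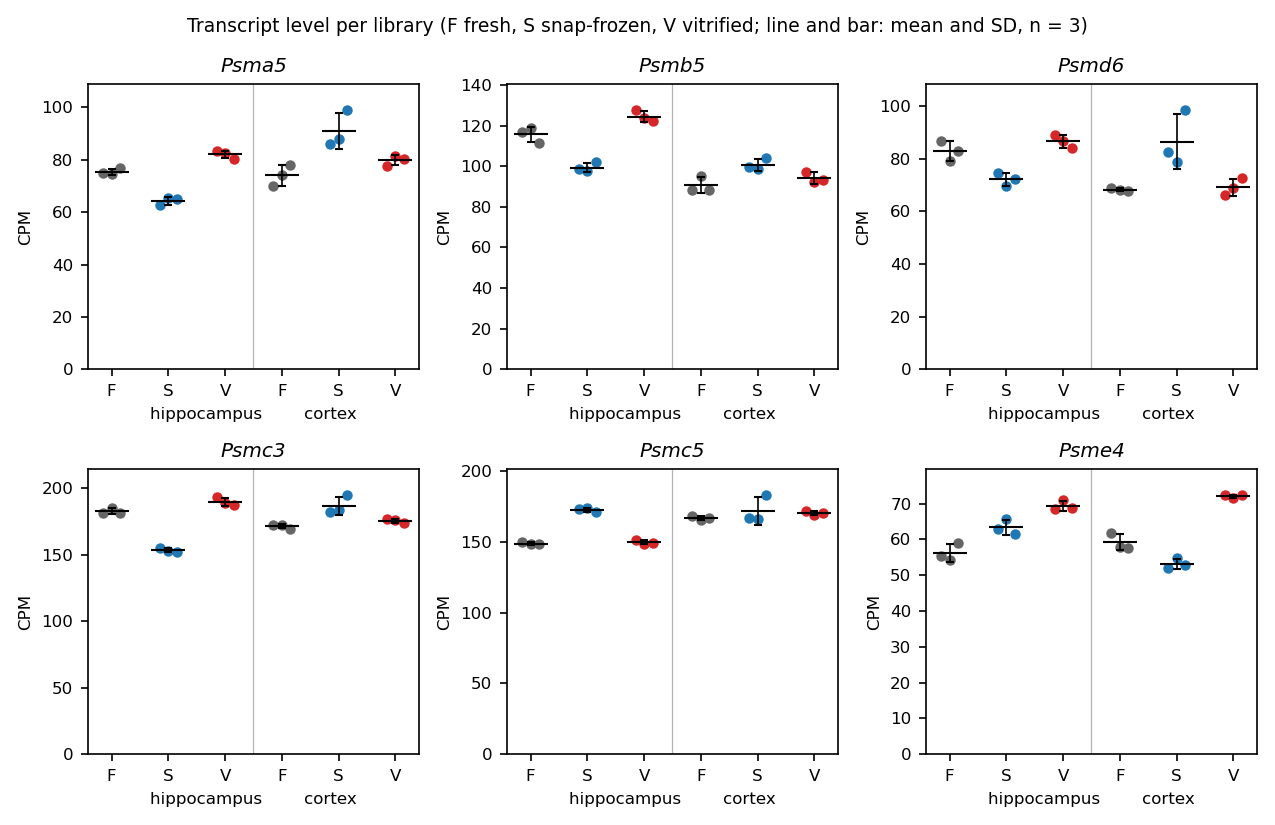
CPM of 6 proteasome genes in each library (vertical axis, from 0) by state of the tissue (F fresh, S snap-frozen, V vitrified), with lines and bars for the mean and SD of 3 libraries. Within hippocampus Psma5, Psmb5, Psmd6 and Psmc3 are lowest and Psmc5 is highest in the snap-frozen libraries, and Psme4 is highest in the vitrified libraries of each tissue.

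Within the base, a pair of ATPases of the same ring parted in snap-frozen hippocampus. Psmc3 stood at 181, 185 and 182 CPM in fresh, 155, 153 and 152 CPM in snap-frozen and 193, 189 and 187 CPM in vitrified hippocampus, and fell after snap freezing by 0.25 (SE 0.026, edgeR adjusted p = 1.68e-11), the largest called fall of any member there. Psmc5 stood at 149.6, 148 and 148 CPM (fresh), 173, 174 and 171 CPM (snap-frozen) and 152, 149 and 149 CPM (vitrified) and rose after snap freezing (0.21 ± 0.027, edgeR adjusted p = 1.57e-09). For both genes the 3 snap-frozen libraries lay clear of the other 6. Both calls held under all 16 alternatives, between -0.32 and -0.13 for Psmc3 and between 0.16 and 0.33 for Psmc5. The log2 ratio of Psmc3 to Psmc5 per kilobase, which no scaling factor enters, was -0.04, 0.01 and -0.02 in the fresh, -0.47, -0.50 and -0.48 in the snap-frozen and 0.04, 0.03 and 0.01 in the vitrified libraries. In cortex the ratio stood at -0.27 ± 0.02 (SD, n = 3) fresh, -0.19 ± 0.03 snap-frozen and -0.27 ± 0.01 vitrified.

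In cortex Psmc3 stood at 172, 172 and 169 CPM (fresh), 182, 183 and 195 CPM (snap-frozen) and 176, 176 and 174 CPM (vitrified) and rose after snap freezing (0.12 ± 0.033, edgeR adjusted p = 0.00455). Psmc5, at 168, 165 and 167 CPM (fresh), 166, 166 and 183 CPM (snap-frozen) and 172, 169 and 170.0 CPM (vitrified), was not called there (0.04 ± 0.036, edgeR adjusted p = 0.375), the third snap-frozen library being the only one above the fresh range. Exons of Psmc3 share 8.25% of their bases with Slc39a13 on the opposite strand, and the strand setting of the counting is not given in the sources used here. Psmc6, another ATPase, stood at 80.0, 83.5 and 82.7 CPM in fresh, 97.2, 94.2 and 113 CPM in snap-frozen and 84.2, 85.7 and 84.5 CPM in vitrified cortex, with all snap-frozen libraries on top and the third highest. It rose by 0.31 ± 0.049, edgeR adjusted p = 1.57e-05, or 0.22 without that library, and its hippocampal levels of 78.8, 77.7 and 88.2 CPM (fresh), 80.7, 75.9 and 82.2 CPM (snap-frozen) and 84.0, 79.7 and 85.5 CPM (vitrified) gave no call.

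The large base scaffolds were the members that fell in vitrified hippocampus, together with Psmd8 of the lid and the chaperone Psmd10. Psmd2, which binds ubiquitin-like shuttle proteins, stood at 263, 252 and 254 CPM (fresh), 241, 237 and 235 CPM (snap-frozen) and 244, 248 and 239.7 CPM (vitrified) in hippocampus, with the fresh libraries highest (vitrified -0.07 ± 0.024, edgeR adjusted p = 0.0114). Psmd1, the other large scaffold, stood at 145, 139 and 143 CPM (fresh), 138, 139 and 142 CPM (snap-frozen) and 139, 136 and 131 CPM (vitrified). It fell after vitrification (-0.07 ± 0.030, edgeR adjusted p = 0.047), its lowest fresh and highest vitrified library being equal to 3 digits. These calls were lost in 3 and 9 of 16 alternatives, library totals among them in both cases. In cortex Psmd2 stood at 249, 256 and 247 CPM (fresh), 250.2, 263 and 263 CPM (snap-frozen) and 241, 237 and 244 CPM (vitrified) with no call against fresh, and Psmd1, at 133, 129.9 and 137 CPM (fresh), 139, 148 and 147 CPM (snap-frozen) and 130.4, 127 and 125 CPM (vitrified), rose after snap freezing (0.12 ± 0.036, edgeR adjusted p = 0.0102) and was not called after vitrification.

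Psmd6, a structural subunit of the lid, had the largest called rise of all members in snap-frozen cortex. It stood at 68.9, 68.1 and 67.6 CPM in fresh, 82.4, 78.7 and 98.3 CPM in snap-frozen and 66.1, 68.8 and 72.6 CPM in vitrified cortex. In hippocampus it stood at 86.7, 78.9 and 82.9 CPM (fresh), 74.6, 69.7 and 72.4 CPM (snap-frozen) and 89.0, 86.8 and 84.2 CPM (vitrified). The snap-frozen libraries were the highest 3 in cortex and the lowest 3 in hippocampus. The rise in cortex was 0.34 ± 0.056, edgeR adjusted p = 2.23e-05, or 0.24 without the third snap-frozen library, and the fall in hippocampus was -0.20 ± 0.038, edgeR adjusted p = 1.47e-05, which was lost under library totals (-0.08). Psmd8, whose counterpart in yeast joins the lid last, stood at 98.6, 93.9 and 95.7 CPM (fresh), 113, 108 and 110.2 CPM (snap-frozen) and 93.8, 93.4 and 92.8 CPM (vitrified) in cortex. In hippocampus it stood at 98.3, 94.8 and 99.0 CPM (fresh), 84.8, 81.9 and 86.8 CPM (snap-frozen) and 88.9, 86.9 and 91.9 CPM (vitrified). Here too the snap-frozen libraries were the highest of cortex, and those of hippocampus lay below all fresh ones (0.20 ± 0.036, edgeR adjusted p = 9.89e-05, and -0.20 ± 0.035, edgeR adjusted p = 1.39e-06). Psmd8 also fell in vitrified hippocampus (-0.13 ± 0.035, edgeR adjusted p = 0.00226), a call lost under library totals.

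The lid's deubiquitinase, Psmd14, cuts ubiquitin chains from substrates before they enter the core. It stood at 91.6, 89.2 and 91.1 CPM in fresh, 89.6, 85.0 and 89.7 CPM in snap-frozen and 103, 106 and 103 CPM in vitrified hippocampus, where the vitrified libraries were the highest 3 (0.20 ± 0.034, edgeR adjusted p = 1.97e-06). In cortex the level was 95.5, 89.6 and 95.2 CPM (fresh), 105, 107 and 119 CPM (snap-frozen) and 98.5, 101 and 96.0 CPM (vitrified). Psmd14 rose after snap freezing (0.24 ± 0.043, edgeR adjusted p = 7.42e-05) there but was not called after vitrification (0.07 ± 0.044, edgeR adjusted p = 0.184). Psmd3, a lid scaffold, stood at 127, 124 and 125 CPM (fresh), 132, 125 and 118 CPM (snap-frozen) and 136, 136 and 133 CPM (vitrified) in cortex. It did not pass after snap freezing (0.00 ± 0.038, edgeR adjusted p = 0.996), and the third snap-frozen library was the lowest of the 9. It rose after vitrification in cortex (0.11 ± 0.038, edgeR adjusted p = 0.0206, lost in 9 of 16 alternatives) and in hippocampus (0.19 ± 0.030, edgeR adjusted p = 1.34e-06), where it stood at 118, 117 and 119 CPM in fresh, 115, 122 and 118 CPM in snap-frozen and 132, 133 and 137 CPM in vitrified tissue, the vitrified libraries on top.

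Psmd12, a scaffold subunit of the lid, was the one lid gene to rise after snap freezing in both tissues. It stood at 72.3, 71.7 and 68.1 CPM in fresh, 80.3, 78.1 and 82.9 CPM in snap-frozen and 76.8, 79.8 and 74.2 CPM in vitrified hippocampus. In cortex it stood at 69.8, 74.6 and 75.3 CPM (fresh), 84.1, 86.2 and 90.7 CPM (snap-frozen) and 74.7, 74.2 and 71.4 CPM (vitrified). Snap-frozen libraries were above all fresh ones in each tissue (0.19 ± 0.038, edgeR adjusted p = 3.29e-05 in hippocampus; 0.25 ± 0.042, edgeR adjusted p = 3.56e-05 in cortex). Psmd11, the clamp between lid and core, stood at 56.4, 56.9 and 57.5 CPM (fresh), 62.6, 62.7 and 64.0 CPM (snap-frozen) and 53.9, 52.3 and 52.3 CPM (vitrified) in cortex, 3 groups without overlap. It rose after snap freezing (0.15 ± 0.042, edgeR adjusted p = 0.00671) and fell after vitrification (-0.11 ± 0.043, edgeR adjusted p = 0.0489), the latter call being lost in 9 of 16 alternatives. Its hippocampal levels of 60.9, 58.7 and 58.8 CPM (fresh), 61.0, 59.4 and 57.0 CPM (snap-frozen) and 57.6, 57.5 and 57.0 CPM (vitrified) gave no call.

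Of the immunoproteasome subunits, Psmb10 alone was called in any comparison. Psmb8 stood at 3.25, 2.95 and 2.89 CPM (fresh), 2.37, 2.42 and 2.69 CPM (snap-frozen) and 3.07, 3.11 and 2.53 CPM (vitrified) in hippocampus. Its cortical levels were 3.36, 2.88 and 3.15 CPM (fresh), 3.11, 3.25 and 3.11 CPM (snap-frozen) and 3.08, 3.79 and 3.20 CPM (vitrified). Psmb9 was lower still, with 1.04, 0.798 and 0.922 CPM (fresh), 0.924, 0.808 and 0.858 CPM (snap-frozen) and 1.19, 0.698 and 1.07 CPM (vitrified) in hippocampus. Psmb9 stood at 1.42, 0.822 and 1.07 CPM (fresh), 0.750, 0.639 and 1.33 CPM (snap-frozen) and 1.54, 1.45 and 0.753 CPM (vitrified) in cortex. For both genes the libraries of the 3 states overlapped, except that all snap-frozen libraries of Psmb8 lay below the fresh ones in hippocampus, and no comparison was called. At these levels the SE of the log2 fold change was 0.15 to 0.17 for Psmb8 and 0.30 to 0.32 for Psmb9 within a tissue, so changes of the size seen in the constitutive core were not detectable.

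Psmb10 behaved otherwise. It stood at 19.9, 17.7 and 17.4 CPM in fresh, 20.3, 22.2 and 21.9 CPM in snap-frozen and 22.3, 22.7 and 20.6 CPM in vitrified hippocampus. The cortex libraries held 25.1, 24.8 and 26.8 CPM (fresh), 28.7, 26.9 and 31.1 CPM (snap-frozen) and 29.4, 25.4 and 27.7 CPM (vitrified). Both treated groups lay above fresh hippocampus, and snap-frozen lay above fresh cortex. The log2 fold changes were 0.25 ± 0.069, edgeR adjusted p = 0.00227 in vitrified hippocampus, 0.22 ± 0.068, edgeR adjusted p = 0.00401 in snap-frozen hippocampus and 0.17 ± 0.065, edgeR adjusted p = 0.0403 in snap-frozen cortex. The second was lost with offsets for GC content and transcript length. The third was lost in 8 of 16 alternatives, among them those offsets, DESeq2 and that without the third snap-frozen cortex library (0.12, edgeR adjusted p = 0.189). Psmb10 made up 12.4% ± 0.767 (SD, n = 3) of the summed level per kilobase of Psmb10 and Psmb7 in fresh, 15.1% ± 0.687 in snap-frozen and 13.5% ± 0.469 in vitrified hippocampus, and 16.997% ± 0.551, 16.4% ± 0.0682 and 17.6% ± 0.997 in the same states of cortex. Psmb8 made up between 1.27% and 1.94% of its pair with Psmb5 over the 6 group means, and Psmb9 between 0.609% and 0.887% of its pair with Psmb6.

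**Figure D4:**
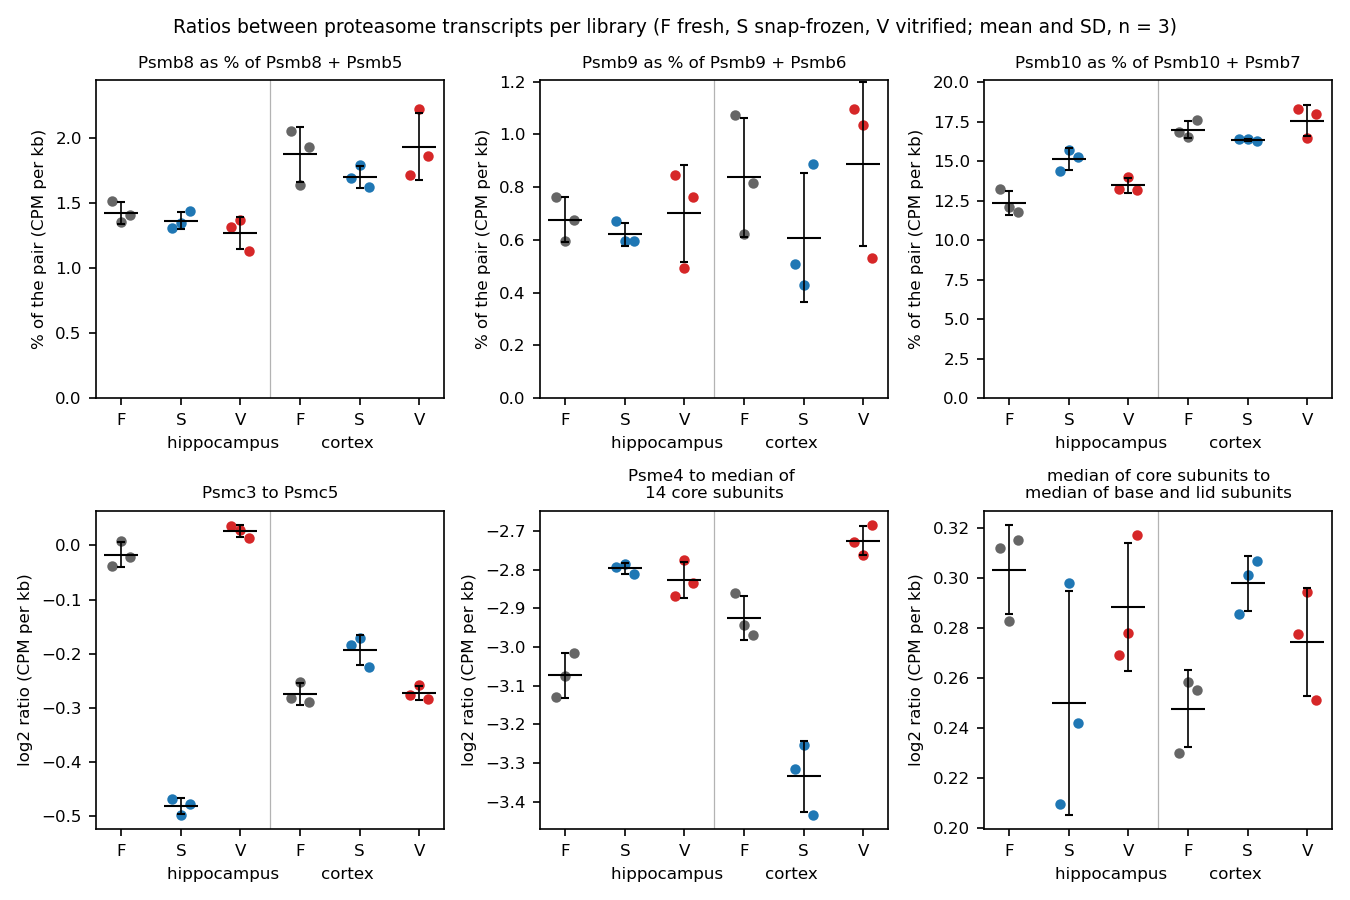
Ratios between proteasome transcripts within each library by state of the tissue (F fresh, S snap-frozen, V vitrified), with mean and SD of 3 libraries: the share of an inducible subunit in its pair (top, percent of CPM per kb) and log2 ratios of levels per kb (bottom). The ratio of Psmc3 to Psmc5 falls to about -0.48 in snap-frozen hippocampus alone, and that of Psme4 to the core median is lowest in snap-frozen cortex, at -3.33.

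The activator Psme4 had the largest rise of all members in each vitrified tissue. This gene, which encodes a large cap of the core that is known from the nucleus and from histone turnover in testis, stood at 55.4, 54.2 and 59.0 CPM in fresh, 62.9, 65.7 and 61.6 CPM in snap-frozen and 68.4, 71.1 and 68.8 CPM in vitrified hippocampus. Cortical values were 61.8, 58.0 and 57.7 CPM fresh, 52.1, 54.8 and 52.7 CPM snap-frozen and 72.3, 71.5 and 72.4 CPM vitrified. Vitrified libraries were the highest 3 of each tissue, while the snap-frozen ones were above fresh in hippocampus and below fresh in cortex. Psme4 rose in vitrified hippocampus (0.30 ± 0.041, edgeR adjusted p = 2.19e-08) and vitrified cortex (0.28 ± 0.043, edgeR adjusted p = 3.45e-06), 1.23-fold and 1.22-fold, under every one of 16 alternatives in each tissue. It rose in snap-frozen hippocampus (0.17 ± 0.041, edgeR adjusted p = 0.000269) and fell in snap-frozen cortex (-0.15 ± 0.044, edgeR adjusted p = 0.00842), where the call was lost in 3 of 16 alternatives. Per kilobase, the log2 ratio of Psme4 to the median of the 14 core subunits was -3.07, -2.80 and -2.83 in fresh, snap-frozen and vitrified hippocampus and -2.92, -3.33 and -2.73 in cortex.

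The interferon-inducible cap subunits Psme1 and Psme2 form a ring together and are neighbours on chromosome 14. Psme1 stood at 27.5, 26.3 and 25.1 CPM (fresh), 28.0, 28.7 and 32.0 CPM (snap-frozen) and 32.8, 28.4 and 31.6 CPM (vitrified) in hippocampus. In cortex the level was 22.8, 24.2 and 25.3 CPM (fresh), 28.7, 26.4 and 27.6 CPM (snap-frozen) and 26.8, 28.6 and 27.0 CPM (vitrified). All treated libraries were above the fresh libraries of their tissue. It rose in vitrified hippocampus (0.24 ± 0.062, edgeR adjusted p = 0.00141), snap-frozen hippocampus (0.17 ± 0.062, edgeR adjusted p = 0.0138), vitrified cortex (0.19 ± 0.062, edgeR adjusted p = 0.016) and snap-frozen cortex (0.19 ± 0.061, edgeR adjusted p = 0.0152), though the calls in snap-frozen hippocampus, vitrified cortex and snap-frozen cortex were lost in 5, 3 and 5 of 16 alternatives. Psme2, whose reads are in part shared with Psme2b and whose values are uncertain, stood at 21.5, 18.9 and 20.5 CPM (fresh), 18.3, 20.1 and 18.8 CPM (snap-frozen) and 22.8, 22.1 and 19.9 CPM (vitrified) in hippocampus. In cortex it stood at 17.9, 16.96 and 20.4 CPM (fresh), 22.0, 19.4 and 24.0 CPM (snap-frozen) and 21.1, 20.6 and 19.96 CPM (vitrified). Its groups overlapped in each tissue, and its one call against fresh was a rise in snap-frozen cortex (0.24 ± 0.077, edgeR adjusted p = 0.0145), lost in 6 of 16 alternatives, among them that without the third snap-frozen library.

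Psme3, the nuclear cap subunit, stood at 122, 121 and 124 CPM (fresh), 116, 115 and 113 CPM (snap-frozen) and 130.1, 124 and 128 CPM (vitrified) in hippocampus. Its cortical levels were 121, 128 and 128 CPM (fresh), 133, 131 and 123 CPM (snap-frozen) and 118, 122 and 119.5 CPM (vitrified). It fell in snap-frozen hippocampus (-0.09 ± 0.030, edgeR adjusted p = 0.00807), where its snap-frozen libraries were the lowest 3, but turned to 0.03 under library totals, and no cortical comparison with fresh was called. Psmf1, the core-binding inhibitor, stood at 31.2, 31.2 and 32.3 CPM (fresh), 34.8, 35.8 and 35.0 CPM (snap-frozen) and 35.9, 34.4 and 35.2 CPM (vitrified) in hippocampus. The cortex libraries held 36.7, 36.6 and 35.8 CPM (fresh), 40.7, 39.2 and 40.4 CPM (snap-frozen) and 40.7, 39.8 and 41.6 CPM (vitrified). Each of its 12 treated libraries was above every fresh library of its tissue. The rises were 0.16 ± 0.052, edgeR adjusted p = 0.0107 in vitrified and 0.16 ± 0.051, edgeR adjusted p = 0.00658 in snap-frozen hippocampus, and 0.16 ± 0.050, edgeR adjusted p = 0.0102 in vitrified and 0.14 ± 0.050, edgeR adjusted p = 0.0305 in snap-frozen cortex. The call of Psmf1 in snap-frozen cortex was lost in 7 of 16 alternatives, among them that without the third snap-frozen library, and with DESeq2 those in vitrified hippocampus and vitrified cortex were lost too. With that limit and those given for Psme1, Psmf1 and Psme1 were the members called higher in all 4 comparisons with fresh tissue.

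Few assembly chaperones were called. Of the core chaperones Psmg1 to Psmg4, whose fresh means were between 5.70 and 14.9 CPM per kb, none was called against fresh in hippocampus or in vitrified cortex, and Psmg1 alone rose in snap-frozen cortex (0.25 ± 0.087, edgeR adjusted p = 0.0272). That call was lost in 6 of 16 alternatives, among them that without the third snap-frozen library. All 4 values were positive in snap-frozen cortex, between 0.13 and 0.25 with a median of 0.18, beside 0.17 for the base and lid genes. The SE of their log2 fold changes against fresh tissue ran from 0.0785 (Psmg2) to 0.176 (Psmg4). Psmd10, a base chaperone also known as an oncoprotein in liver, stood at 18.3, 16.7 and 17.3 CPM (fresh), 17.4, 17.1 and 17.9 CPM (snap-frozen) and 15.3, 14.2 and 16.1 CPM (vitrified) in hippocampus. Cortical values were 17.3, 17.3 and 17.4 CPM (fresh), 16.9, 17.7 and 19.5 CPM (snap-frozen) and 16.4, 16.8 and 16.4 CPM (vitrified). Its vitrified libraries were the lowest 3 of hippocampus (-0.20 ± 0.073, edgeR adjusted p = 0.0238, lost in 5 of 16 alternatives), and cortex gave no call. Psmd5, another base chaperone, stood at 50.0, 47.4 and 50.1 CPM (fresh), 48.1, 46.96 and 48.0 CPM (snap-frozen) and 46.3, 47.5 and 45.7 CPM (vitrified) in hippocampus, with no call, and at 43.4, 41.3 and 41.7 CPM (fresh), 44.2, 46.1 and 48.6 CPM (snap-frozen) and 41.0, 40.6 and 41.1 CPM (vitrified) in cortex, where the snap-frozen libraries were the highest 3 (0.14 ± 0.049, edgeR adjusted p = 0.033), a call lost in 7 of 16 alternatives, among them that without the third snap-frozen library. Psmd9 and Psmc3ip, the latter at 1.66 to 2.88 CPM, were called in no comparison with fresh tissue.

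Whether the change after snap freezing differed between the tissues was tested directly, as the snap-freezing effect in cortex minus that in hippocampus in a fit of all 18 libraries. The difference was positive and called for 28 members and negative and called for 2, while 26.6% and 28.3% of the 14827 genes tested were called in each direction (55% in either). All 14 constitutive core subunits were among the 28, with a median of 0.34, as were 11 of 17 base and lid genes. Psmd6 (0.53 ± 0.072, edgeR adjusted p = 4.81e-08), Psma5 (0.51 ± 0.062, edgeR adjusted p = 2.69e-09), Psmb3 (0.42 ± 0.072, edgeR adjusted p = 3.44e-06), Psmb2 (0.41 ± 0.072, edgeR adjusted p = 6.77e-06), Psma4 (0.40 ± 0.064, edgeR adjusted p = 1.35e-06) and Psmd8 (0.39 ± 0.049, edgeR adjusted p = 6.08e-09) differed most, and all of these were called under each of 22 alternatives. Psme4 (-0.34 ± 0.059, edgeR adjusted p = 5.73e-06) and Psmc5 (-0.18 ± 0.044, edgeR adjusted p = 0.000508) differed the other way. Under library totals the median of all genes in this difference moved from -0.01 to -0.12, and 19 members were called positive and 3 negative, with 12 core subunits among the 19. Without the third snap-frozen cortex library 24 were called positive and 2 negative, with 13 core subunits among the 24. The core median was 0.23 under library totals and 0.27 without that library. Shares of all genes at these settings are not given here, and those of the main fit do not serve as their background.

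**Figure D5:**
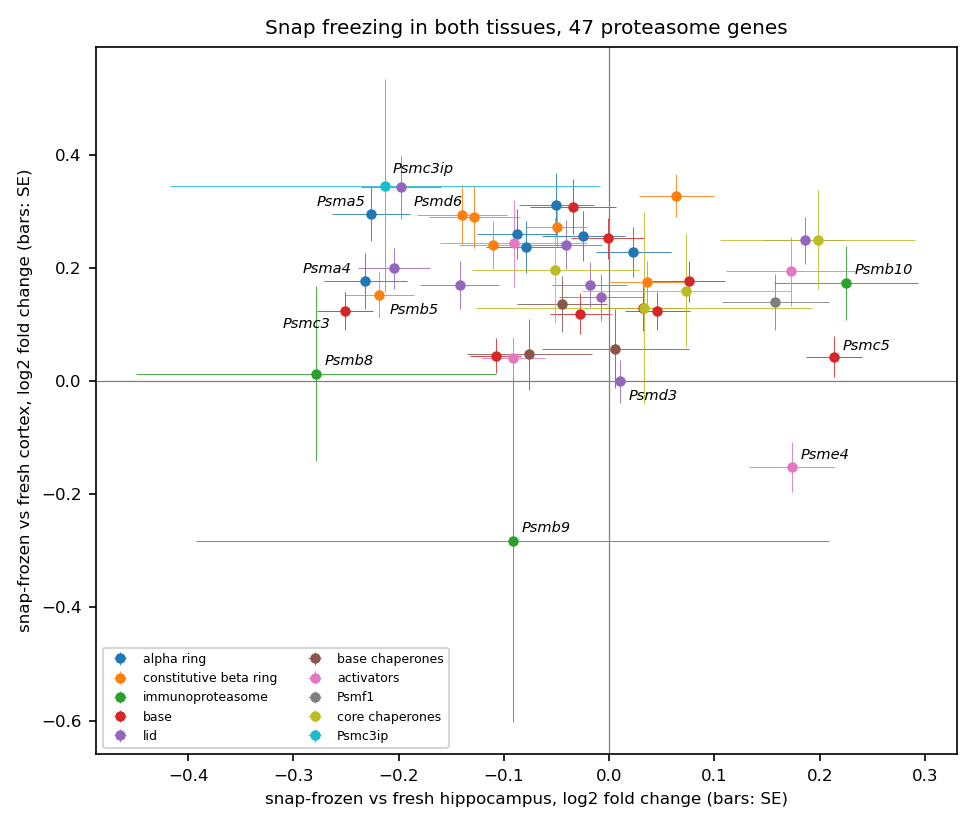
Log2 fold change of 47 proteasome genes after snap freezing in hippocampus (horizontal axis) and in cortex (vertical axis), with bars for the SE and colours for the class. Most points, including Psma5, Psmd6, Psma4, Psmb5 and Psmc3, lie to the upper left, while Psmc5 lies to the right near 0 and Psme4 to the lower right.

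Of the 13 members that fell in snap-frozen hippocampus, 11 rose in snap-frozen cortex (84.6% of the 13, and 32.4% of the 34 that rose in cortex, beside 72.3% of all 47 members risen there): Psma1, Psma4, Psma5, Psmb2, Psmb3, Psmb5, Psmb7, Psmc3, Psmd6, Psmd8 and Psmd13. Of these 11 falls, those of Psma4, Psma5, Psmb5, Psmc3 and Psmd8 held in all 16 alternatives, and under library totals 5 members fell in hippocampus. The cortical rises of Psma4, Psmb5 and Psmc3 were each lost in 2 of 16 alternatives. Psmb10, Psmd12, Psme1 and Psmf1 rose in both tissues (66.7% of 6 and 11.8% of 34). For vitrification the same test called 0 members with a larger effect in cortex and 2 with a smaller one, Psmd14 (-0.16 ± 0.056, edgeR adjusted p = 0.0454) and Psme3 (-0.16 ± 0.047, edgeR adjusted p = 0.0158), beside 7.01% and 5.89% of all genes (12.9% in either direction). These calls were lost in 13 and 8 of 22 alternatives. At an unadjusted p under 0.05 there were 6 members, beside 24.6% of all genes. Psmc2, Psmd3, Psme1, Psme4 and Psmf1 rose after vitrification in both tissues (38.5% of 13 in hippocampus and 50% of 10 in cortex), and none fell in both. Of all 47 members 27.7% rose in vitrified hippocampus and 21.3% in vitrified cortex. In cortex the calls of Psmd3, Psme1, Psmc2 and Psmf1 were lost in 9, 3, 2 and 1 of 16 alternatives, and that of Psme4 in 0.

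Genes that work beside the proteasome were read from 4 lists, and their counts are to be read beside the shares of all genes. Those risen and fallen were 23.8% and 25.3% in vitrified and 31.5% and 30.7% in snap-frozen hippocampus. In cortex they were 23.2% and 17.3% in vitrified and 16.4% and 17.6% in snap-frozen tissue. Of 11 tested proteasome-associated genes 5 rose and 1 fell in snap-frozen cortex, among them the ubiquitin hydrolase Usp14 (0.25 ± 0.037, edgeR adjusted p = 5.62e-06), the proteasome-bound thioredoxin Txnl1 (0.27 ± 0.046, edgeR adjusted p = 3.35e-05) and the core maturation factor Pomp (0.19 ± 0.041, edgeR adjusted p = 0.000761). In snap-frozen hippocampus 1 rose and 4 fell, including the ubiquitin ligase Ube3c (-0.33 ± 0.031, edgeR adjusted p = 6.58e-13) and Akirin2 (-0.27 ± 0.045, edgeR adjusted p = 1.04e-06), which carries proteasomes into the nucleus. Ube3c also fell in vitrified hippocampus (-0.21 ± 0.031, edgeR adjusted p = 2.31e-07), where 4 of the list rose and 3 fell, and Zfand5, an activator of the particle, rose in vitrified hippocampus (0.29 ± 0.028, edgeR adjusted p = 1.76e-12) and vitrified cortex (0.22 ± 0.032, edgeR adjusted p = 1.44e-06), where 3 rose and 2 fell.

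Of 11 regulators of proteasome genes and their processing, 1 rose and 4 fell in vitrified hippocampus, 1 rose and 6 fell in vitrified cortex, 1 rose and 4 fell in snap-frozen hippocampus, and 2 rose and 1 fell in snap-frozen cortex. Nfe2l2, the oxidative stress factor, fell after vitrification in hippocampus (-0.71 ± 0.080, edgeR adjusted p = 2.98e-10) and cortex (-0.49 ± 0.073, edgeR adjusted p = 2.3e-06) and rose in snap-frozen hippocampus (0.31 ± 0.068, edgeR adjusted p = 0.000117). Nfe2l1, which raises proteasome genes when the particle is inhibited, fell in vitrified hippocampus (-0.16 ± 0.023, edgeR adjusted p = 1.67e-07) and snap-frozen cortex (-0.10 ± 0.028, edgeR adjusted p = 0.00639). Sel1l, of the machinery that exports proteins from the endoplasmic reticulum, fell in vitrified hippocampus (-0.30 ± 0.026, edgeR adjusted p = 1.84e-13) and vitrified cortex (-0.12 ± 0.036, edgeR adjusted p = 0.00849).

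Of 12 ubiquitin and shuttle genes, 2 rose and 8 fell in vitrified hippocampus, 4 rose and 7 fell in snap-frozen hippocampus, 1 rose and 5 fell in vitrified cortex, and 4 rose and none fell in snap-frozen cortex. The ubiquitin gene Ubb was among those risen in snap-frozen cortex (0.19 ± 0.023, edgeR adjusted p = 2.53e-07), and the activating enzyme Uba6 fell in vitrified hippocampus (-0.30 ± 0.069, edgeR adjusted p = 0.000326) and cortex (-0.24 ± 0.065, edgeR adjusted p = 0.00399). Of the interferon and peptide-loading genes, 1 rose and 5 fell of 14 in vitrified hippocampus, 5 rose and 1 fell in snap-frozen hippocampus, 2 rose and 2 fell of 13 in vitrified cortex, and 0 rose and 3 fell in snap-frozen cortex. Ifit3, an interferon-induced gene, fell in vitrified hippocampus (-0.76 ± 0.095, edgeR adjusted p = 3.86e-09), vitrified cortex (-0.40 ± 0.079, edgeR adjusted p = 0.000137) and snap-frozen cortex (-0.30 ± 0.077, edgeR adjusted p = 0.00347). Psmb10 and Psme1 both rose in vitrified hippocampus and in both snap-frozen tissues, with the limits given above, and a link to the interferon genes was not tested.

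Markers of cell types moved in the same comparisons, and their part in the members' changes was not tested. In snap-frozen hippocampus 7 of 8 excitatory neuron markers fell (summed level 4228 to 4292 CPM against 7782 to 7945 CPM fresh), 7 of 8 hippocampal field markers fell, all 10 oligodendrocyte markers rose (10180 to 10258 CPM against 6403 to 6590 CPM) and all 10 endothelial markers rose (485 to 503 CPM against 213 to 218 CPM). In snap-frozen cortex 5 of 8 hippocampal field markers rose, with a median log2 fold change of 1.14 over the 8, and their summed level was 198 to 221 CPM against 187 to 191 CPM. There all 8 choroid plexus markers fell (132 to 140 CPM against 318 to 413 CPM), and excitatory neuron markers had 4 risen and 1 fallen (5957 to 6366 CPM against 6259 to 6334 CPM). After vitrification all 10 astrocyte markers fell in each tissue (2058 to 2074 CPM against 5770 to 5805 CPM in hippocampus, and 3298 to 3370 CPM against 5952 to 6024 CPM in cortex), and 8 of 10 microglial markers fell in hippocampus and 6 of 10 in cortex. In vitrified cortex all 8 choroid plexus markers fell (8.73 to 9.69 CPM against 318 to 413 CPM, median log2 fold change -2.80), as did all 8 meningeal fibroblast markers (92.3 to 95.6 CPM against 195 to 208 CPM, median -1.22). In vitrified hippocampus all 10 endothelial markers rose (373 to 386 CPM against 213 to 218 CPM, median 0.82). No marker of these lists was at 0 in all libraries of a group, except 1 of the blood list in fresh hippocampus and in vitrified cortex.

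Transcript length and base composition moved with the changes in snap-frozen cortex. The tested members' transcripts had a median length of 1430 bases, against 3099 bases for all genes tested there. Over all 14266 genes with a length, the log2 fold change of snap-frozen against fresh cortex had a Spearman correlation of -0.328 with length and -0.213 with GC content, and over the 47 members the values were -0.349 and -0.351, given as a description across genes that share the same libraries. With offsets that remove the trend with length and GC content in each library, 23 members rose and none fell in snap-frozen cortex, among them 11 of 14 core subunits (median 0.13) and 10 of 17 base and lid genes (median 0.10). At that setting 14.8% of all genes rose there (28.3% were called in either direction). In vitrified against snap-frozen cortex the same offsets gave 2 members higher and 13 lower, in place of 2 and 26, beside 24.3% of all genes higher (48.6% in either direction). The 2 higher members were not the same: Psmd3 lost its call and Psmc5 became called (0.08, edgeR adjusted p = 0.0133). In snap-frozen hippocampus the offsets gave 4 higher and 16 lower, beside 31.6% of all genes higher (62.5% in either direction). In the difference between the tissues they gave 26 positive and 2 negative, with 12 core subunits among the 26. The share of all genes in that difference under the offsets is not given here.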

How the data were processed

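Poly(A) RNA of 18 tissue pieces was sequenced as stranded libraries, and the submitters' processing notes name the aligner HISAT2 2.0.4 and the genome GRCm38.p6. The authors deposited unscaled estimated counts of reads per gene, in 1 table per tissue. The counting tool, its filters and its use of strand are not stated in the labels or headers. Between 4.39% and 5.16% of the values in a library were not whole, and all values were rounded. Samples were grouped by their labels, 3 libraries to each of 6 groups, with totals of 15725356 to 17480302 counts.

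Each tissue was fitted over its 9 libraries, and the fit across tissues over all 18, with edgeR 4.0.16 (quasi-likelihood test, TMM factors, filterByExpr; R 4.3.3, limma 3.58.1), and p-values were Benjamini-Hochberg adjusted over all genes tested with a threshold of 0.05. The fits were tested on simulated data. Values are CPM, also per kilobase of transcript (GENCODE M21), log2 fold changes are given ± SE, and means ± SD. Named members were the called ones with a mean of at least 5 CPM and the largest changes, up to 6 per direction and comparison. The members and lists were chosen with earlier results of these data known. Alternatives were RLE factors, library totals, no filter, 1 CPM in 3 libraries, DESeq2 1.42.0, limma-voom, the compared groups alone, a replicate block, offsets for GC content and length, and each library left out. Exons of 9 members share bases with another gene, 8 of them on the opposite strand, so reads of such partners cannot be told apart if strand was not used. With 3 libraries against 3 an exact permutation test of a single gene cannot go below p = 0.1.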

Additional observations from a re-analysis of the deposited data

Results flagged for a closer look

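The effect of a treatment differed between the tissues, by the test of the difference itself in the edgeR fit of all 18 libraries, for 32 values of the members, each given as the log2 effect in cortex minus that in hippocampus. After snap freezing the alpha-ring genes differed by 0.3352 (Psma1), 0.1932 (Psma2), 0.3498 (Psma3), 0.3964 (Psma4), 0.5095 (Psma5), 0.2693 (Psma6) and 0.3036 (Psma7). The constitutive beta-ring genes differed by 0.2515 (Psmb1), 0.4066 (Psmb2), 0.422 (Psmb3), 0.3102 (Psmb4), 0.3583 (Psmb5), 0.1261 (Psmb6) and 0.3386 (Psmb7). The base genes differed by 0.2415 (Psmc2), 0.3623 (Psmc3), 0.3303 (Psmc6), 0.1346 (Psmd1) and 0.1401 (Psmd2), and Psmc5 by -0.1829. The lid genes differed by 0.144 (Psmd11), 0.299 (Psmd13), 0.2696 (Psmd14), 0.5279 (Psmd6), 0.1766 (Psmd7) and 0.3915 (Psmd8). The base chaperone Psmd5 differed by 0.1685, and the activators by 0.3226 (Psme2), 0.1201 (Psme3) and -0.3388 (Psme4). After vitrification the lid deubiquitinase Psmd14 differed by -0.1639 and the nuclear cap Psme3 by -0.1618. Of the snap-freezing calls, those of Psmb6, Psmd11 and Psme3 were lost in 16, 13 and 13 of 22 alternatives. Those of Psmd5 and Psmd1 were lost in 9 and 7, of Psma2 and Psme2 in 3 each, of Psmd7 in 2 and of Psmd2 in 1. The other snap-freezing calls held in all 22. The vitrification calls were lost in 13 (Psmd14) and 8 (Psme3) of 22.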

How the results depend on the processing

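Of 7329 values of single members under an alternative, 6801 stayed on their side of the threshold without a called value changing sign (297 of them changed sign while called in neither fit), 357 were no longer called, 152 became called and 19 reversed. With library totals in snap-frozen against fresh hippocampus the log2 fold change turned positive for Psma1 (0.0314), Psma6 (0.0947), Psmb4 (0.0695), Psmb7 (0.0087), Psmc2 (0.1179), Psmd1 (0.092), Psmd11 (0.1114), Psmd14 (0.0785), Psmd2 (0.0116), Psmd7 (0.1008) and Psme3 (0.0282). In vitrified against snap-frozen cortex, offsets for GC content and length, without and with the replicate block, turned it positive for Psma4 (0.027 and 0.0271), Psma6 (0.0059 and 0.0057), Psma7 (0.025 and 0.0258) and Psmc5 (0.0839 and 0.0842). The count of members called moved by over 1.5 times with library totals in vitrified against fresh hippocampus (33, from 17), with DESeq2 in vitrified against fresh cortex (2, from 11), and with the offsets in snap-frozen against fresh cortex (23, and 22 with the block, from 35) and in vitrified against snap-frozen cortex (15, and 15 with the block, from 28). For the difference of the vitrification effect between tissues it was 1 with no filter, 1 with DESeq2 and 5 with the compared groups alone, from 2. The cause of these changes was not tested.

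Leaving out 1 library at a time gave 15 to 17 called members in vitrified and 16 to 21 in snap-frozen against fresh hippocampus, and 20 to 25 between those treatments. In cortex it gave 4 to 9, 29 to 34 and 20 to 28 in the same order. It gave 9 to 13 between the fresh tissues, 0 to 2 for the vitrification difference and 24 to 32 for the snap-freezing difference.

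With the replicate number as a block the counts were 16, 19 and 25 in hippocampus and 11, 35 and 26 in cortex for vitrified against fresh, snap-frozen against fresh and vitrified against snap-frozen tissue, then 11 between the fresh tissues, 2 for the vitrification and 30 for the snap-freezing difference. Libraries sharing a number had correlated deviations of -0.0777 to 0.0407, so the numbers were not taken to pair them. Low counts limit Psmb8, Psmb9, Psmc3ip and the Psmg genes.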
